A study of Mus musculus with 9 samples.

Results

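The extracellular matrix genes and their integrin receptors were measured by RNA-seq in 9 samples of the CT26 line, which came from a mouse colorectal carcinoma. Members were the collagen chains, laminin chains and integrin subunits recognised by gene symbol, together with Fn1 (fibronectin), that had a mean of at least 1 FPKM over the 9 samples. FPKM counts fragments by transcript length in kilobases and by library size. Of 83 rows of the table with a matching symbol, 28 were members: 12 of 44 collagen rows, 6 of 11 laminin rows, 9 of 27 integrin rows and Fn1. The whole table holds 53796 genes, of which 12212 reached the same minimum and were tested. All 3 groups carried a knockout of Pd-l1 (gene symbol Cd274), the ligand of the T cell receptor PD-1. Into these cells a retrovirus brought an empty vector (KO), wild-type mouse Pd-l1 (WT) or the K262Q mutant of mouse Pd-l1 (K262Q). Each group had 3 samples, and the infected cells were kept under puromycin as polyclonal lines. Whether a group's 3 samples were cultured separately is not stated in the labels, and p-values here reflect only sample-to-sample spread, part or all of it possibly technical. Where a group is 1 polyclonal line, the form of Pd-l1 and the line that carries it cannot be told apart.

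Collagens are trimers of alpha chains. Fibrillar types such as collagen I, III and V form the fibres of connective tissue, and collagen IV forms the sheet of the basement membrane. Laminins are trimers of an alpha, a beta and a gamma chain, and build the basement membrane with collagen IV. Fibronectin is a secreted glycoprotein that cells assemble into fibrils. Integrins are pairs of an alpha and a beta subunit that bind these proteins outside the cell and link them to the actin skeleton inside, and the pairing sets which ligand is bound.

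Cd274 was at 0.357 to 0.982 FPKM in KO, at 35.4 to 38.0 FPKM in WT and at 37.6 to 41.3 FPKM in K262Q, as the labels say. From the smallest values, a library held 18.5 M to 19.6 M fragments, with M standing for 1e6. The line carried few of the defining transcripts of colon epithelium: 2 of 15 epithelial markers reached 1 FPKM (Krt18 and Krt20), Cdh1 was listed at 0 in the 9 samples, and Epcam had a mean of 0.00606 FPKM. Of 14 mesenchymal and fibroblast markers 8 reached 1 FPKM, with Vim at a mean of 3090 FPKM. Of the others, Thy1, Lum and Dcn were listed at 0 in the 9 samples. Acta2 had a mean of 0.0496 FPKM, Fap of 0.411 FPKM and Tagln of 0.625 FPKM. Leukocyte markers reached that level in 1 of 15 genes (Cd14, with Ptprc at 0.0051 FPKM) and endothelial markers in 1 of 10 (Ets1, with Pecam1 at 0.0106 FPKM).

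The collagen transcripts were dominated by 1 chain. Col1a2, the alpha2 chain of collagen I, had a mean of 205 FPKM and made up 49.6% of the summed collagen FPKM. Its partner Col1a1, the alpha1 chain, had a mean of 7.06 FPKM, so that Col1a2 exceeded Col1a1 by 18.7-fold to 42.7-fold over the 9 libraries, with a median of 31.5-fold. FPKM is scaled by transcript length, but other differences between the 2 genes were not corrected, so the ratio is approximate. The basement membrane chain Col4a1 was second in the 9 libraries, at a mean of 72.3 FPKM. Col3a1, the chain of collagen III, was at 30.4 FPKM and Col16a1, a chain of a fibril-associated collagen, at 25.7 FPKM. Col5a1, a chain of collagen V that takes part in starting fibrils, was at 20.4 FPKM, while its partner Col5a2 stayed at 0.0669 FPKM. Col3a1 and Col5a2 are neighbours on chromosome 1, separated by 24615 nt. In collagen VI the same held: Col6a1 was a member at 1.76 FPKM, whereas Col6a2, its neighbour on chromosome 10, was at 0.0671 FPKM and Col6a3 at 0.00637 FPKM.

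Collagen IV was represented by Col4a1 at 72.3 FPKM, Col4a2 at 19.97 FPKM and Col4a5 at 11.2 FPKM. Col4a1 and Col4a2 encode the chains of the common collagen IV trimer and are transcribed away from each other on chromosome 8. Their annotated 5′ ends overlap by 22 nt, and this stretch, at chr8:11312805-11312826 of GRCm38.p6 on the plus strand, is shown because the start sites of both chains lie in it (RefSeq promoter table). It is 72.7% G and C.
Col4a1 and Col4a2: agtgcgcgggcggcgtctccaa
From this shared start region Col4a1 reached 3.27 to 4.33 times the FPKM of Col4a2, with a median of 3.54. Col4a5 lies 1309 nt from Col4a6 on chromosome X, and Col4a6 had a mean of 0.000881 FPKM. The remaining pair, Col4a3 and Col4a4, starts 72 nt apart and was at 0.0197 and 0.0342 FPKM. Col8a1, a short-chain collagen, was at 12.2 FPKM, Col7a1, the anchoring fibril collagen, at 4.05 FPKM and Col18a1, the precursor of endostatin, at 3.16 FPKM. Col18a1 overlaps Slc19a1 on the other strand, which had 16.4 FPKM, and since no strand setting is stated its value is uncertain.

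Among the laminins, the beta chain Lamb1 was highest at 74.6 FPKM and made up 38.7% of the summed laminin FPKM. The gamma chain Lamc1 had a mean of 37.1 FPKM. The alpha chain Lama5 stood at 33.8 FPKM and the second beta chain Lamb2 at 16.6 FPKM. Lama5, Lamb1 and Lamc1 are the chains of a laminin trimer common in epithelial and vascular basement membranes. The third beta chain, Lamb3, with which Lama3 assembles in skin-type basement membranes, was at 0.0872 FPKM, and Lama3 itself was at 1.12 FPKM, the lowest of the 28 members. Lamb1 exceeded Lamb2 by 3.54-fold to 7.20-fold.

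Fn1 (chr1:71585520-71653200, minus strand, GRCm38) was abundant, at a mean of 95.6 FPKM. Itgb1, the beta subunit shared by most matrix-binding integrins, was highest of the integrins at 158 FPKM and made up 38.2% of their sum. Its alpha partners were Itgav at 46.7 FPKM, Itga6 at 42.7 FPKM, Itga3 at 27.6 FPKM and Itga5 at 16.5 FPKM. Itgav and Itga5 are known for binding fibronectin, and Itga3 and Itga6 for binding laminins. The alpha subunits of the collagen-binding integrins were low: Itga1 was at 0.00206 FPKM, Itga2 at 0.0104 FPKM and Itga11 at 0.00471 FPKM, while Itga10 fell short of the minimum at 0.562 FPKM. Of the other beta partners of Itgav, Itgb5 was at 24.2 FPKM, Itgb8 at 0.382 FPKM, Itgb3 at 0.00333 FPKM and Itgb6 at 0.00375 FPKM.

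Itgb7 was the second highest integrin, at 94.5 FPKM, or 0.441 to 0.718 times Itgb1. It encodes a beta subunit best known from lymphocytes, where it pairs with Itga4 or Itgae. Itga4 was listed at 0 in the 9 samples, and Itgae had a mean of 0.186 FPKM. A similar gap was seen at low level for Itgb2, the leukocyte beta subunit, at 1.38 FPKM: its partners Itgal, Itgam, Itgax and Itgad each had means below 0.02 FPKM. The sequence before the Itgb7 start is shown because Itgb7 was the integrin whose level passed the test between groups. The 241 nt at chr15:102231945-102232185 of GRCm38.p6 are given on the minus strand, from which the gene is read, and come from the RefSeq promoter table. Capitals mark the match to the E-box CANNTG.
Itgb7: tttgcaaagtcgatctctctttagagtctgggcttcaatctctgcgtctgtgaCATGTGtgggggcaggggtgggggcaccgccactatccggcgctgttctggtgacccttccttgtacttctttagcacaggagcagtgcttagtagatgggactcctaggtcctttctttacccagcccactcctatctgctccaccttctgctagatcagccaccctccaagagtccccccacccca
The stretch is 55.6% G and C, against a median of 52.3% over the promoter windows. It held 1 match to CANNTG, which 65.2% of 32851 promoter windows hold on either strand. It held none to GGGCGG (31.4% of windows), CCAAT (33.1%), TATAAA (12.1%), TGANTCA (6.6%) or TGACGTCA (1.47%), searched on both strands. Such a match describes the letters of this window and is not a site of binding.

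**Figure D1:**
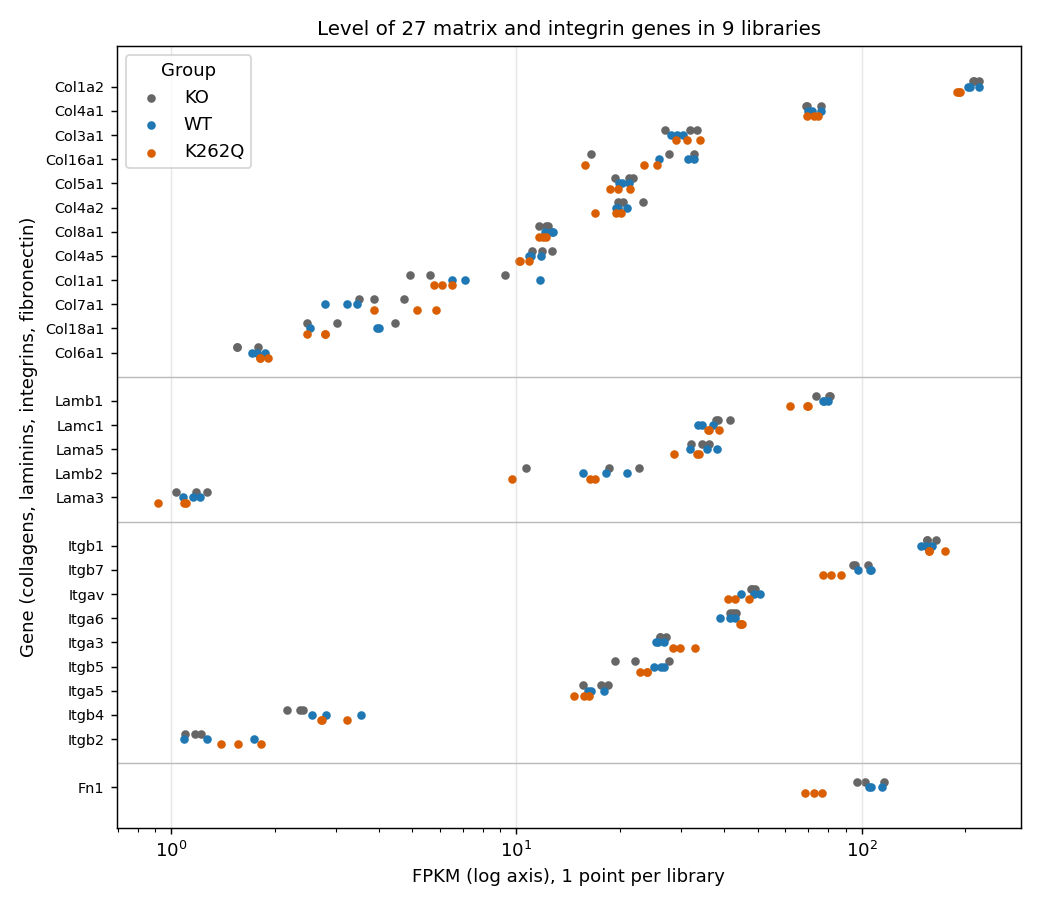
FPKM of 27 of the 28 members on a log axis, 1 point per library, coloured by group and ordered by mean within collagens, laminins, integrins and fibronectin. Levels run from Lama3 at about 1 FPKM to Col1a2 at 205 FPKM. The K262Q points of Fn1, Itgb7, Col1a2 and Lamb1 lie to the left of the other 6, and those of Itga3 and Itga6 to the right.

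Within the families the order of levels was only partly resolved. Of 24 pairs of neighbours in the order, 11 had overlapping ranges over the 9 libraries: 7 of 11 in the collagens, 2 of 5 in the laminins and 2 of 8 in the integrins. Just inside the minimum stood Lama3 (1.12 FPKM), Itgb2 (1.38 FPKM) and Col6a1 (1.76 FPKM). Just outside stood Itga2b (0.693 FPKM), Itga10 (0.562 FPKM), Col11a2 (0.553 FPKM) and Col9a3 (0.541 FPKM). Of the rows below the minimum, 46 had a mean below 0.1 FPKM and 7 were listed at 0 in the 9 samples.

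K262Q was first compared with WT, which asks what differed between cells with the mutant and cells with the wild-type protein. Of the 28 members, 2 passed the threshold of an adjusted p of 0.05 in limma, Fn1 and Itgb7, and both were lower in K262Q. The share was 7.14%, near the 9.38% of all tested genes that passed. In the lower direction alone 3.02% of all genes passed, and in the higher direction 6.35%, where the members had 0. In bulk RNA, fewer cells with a transcript and less of it per cell cannot be told apart.

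Fn1 was at 107, 105 and 115 FPKM in WT and at 76.6, 68.5 and 72.9 FPKM in K262Q. In KO it was at 116, 97.3 and 103 FPKM. The 3 K262Q samples lay below the other 6, with no overlap. On the log2(FPKM + 1) scale, on which the folds and differences that follow are given, Fn1 fell by 0.58 ± 0.075 (SE), which is 1.49-fold, with an adjusted p of 0.016 in limma and a 95% interval from -0.75 to -0.40. The call depended on which library was left out: it was lost without WT replicate 1, WT replicate 2, K262Q replicate 2 or K262Q replicate 3, where the adjusted p reached 0.0627. The difference stayed between -0.67 and -0.54 over the settings run.

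Itgb7 was at 107, 97.6 and 106 FPKM in WT and at 81.6, 77.1 and 87.0 FPKM in K262Q. In KO it was at 95.9, 94.6 and 104 FPKM. Again the K262Q samples were the 3 lowest of the 9. Itgb7 fell by 0.33 ± 0.063 (SE), or 1.26-fold, with an adjusted p of 0.0259 in limma and an interval from -0.48 to -0.19. This call was lost without any 1 of the 3 WT or 3 K262Q libraries, and also without a minimum level, where the adjusted p was 0.0523.

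**Figure D2:**
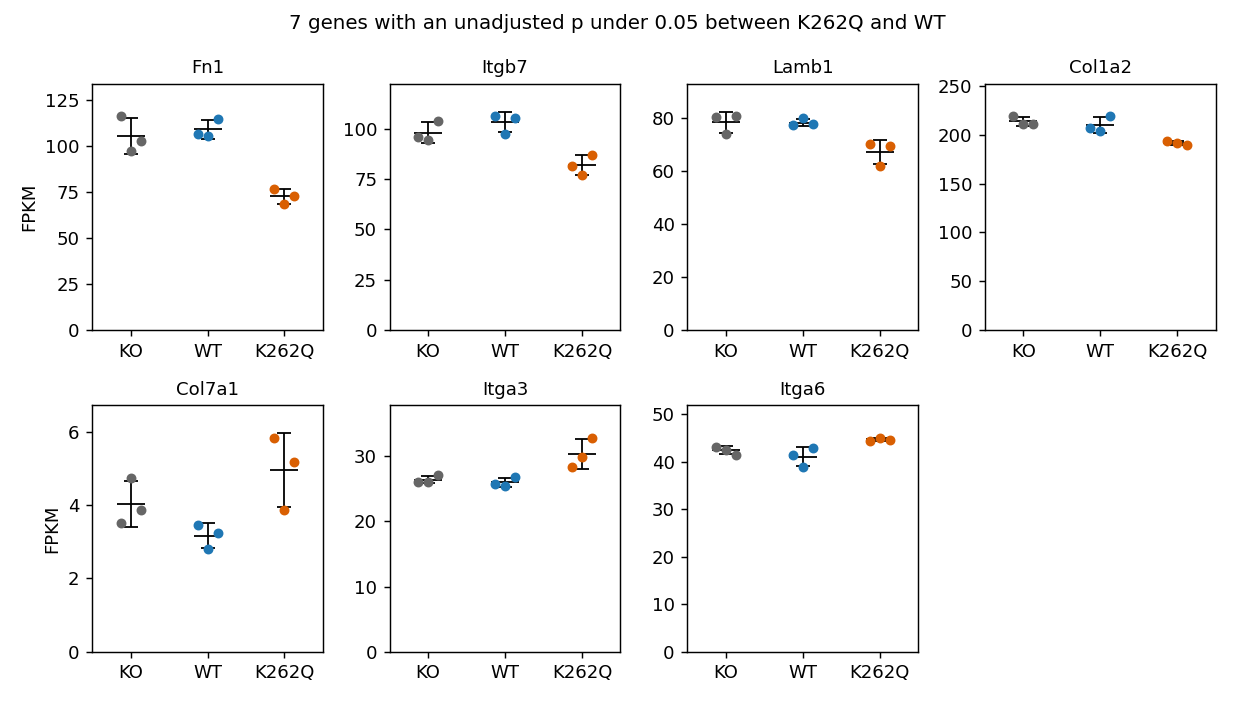
FPKM by group of 7 members with an unadjusted p under 0.05 between K262Q and WT, 1 point per library, with the mean and SD of 3. Fn1 and Itgb7 are the 2 that passed the adjusted threshold, and in each of the 7 panels the K262Q points lie wholly below or wholly above the WT points.

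Another 6 members had an unadjusted p under 0.05 but did not pass after adjustment over all genes. With the 2 above these made 8 of 28, against 27.9% of all tested genes. Among the laminins, Lamb1 was at 77.2, 79.8 and 77.8 FPKM in WT and at 70.1, 61.9 and 69.5 FPKM in K262Q, a difference of -0.22 (adjusted p = 0.0599 in limma). The groups did not overlap. Col1a2 was at 207, 204 and 219 FPKM in WT and at 193, 192 and 189 FPKM in K262Q, a difference of -0.13 (adjusted p = 0.0748 in limma). These are small differences. The spread was tight for Col1a2 in both groups and for Lamb1 in WT, but wider for Lamb1 in K262Q.

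The 3 members that lay higher in K262Q without overlap were 1 collagen and 2 laminin-binding integrin subunits. Col7a1 was at 3.46, 2.80 and 3.23 FPKM in WT and at 5.84, 3.87 and 5.17 FPKM in K262Q, a difference of 0.51 with an interval from 0.16 to 0.85 (adjusted p = 0.0718 in limma). Itga3 was at 25.7, 25.4 and 26.7 FPKM in WT and at 28.4, 29.9 and 32.9 FPKM in K262Q, a difference of 0.22 (adjusted p = 0.0552 in limma). Itga6 was at 41.5, 38.8 and 42.9 FPKM in WT and at 44.3, 45.1 and 44.7 FPKM in K262Q, a difference of 0.12 (adjusted p = 0.122 in limma). In all, the 2 groups did not overlap in 10 of 28 members, 7 lower and 3 higher in K262Q. That is 35.7%, beside 35.4% of all tested genes.

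The remaining members did not pass, and their intervals show what sizes the data allow. Of the subunits known for binding fibronectin, Itga5 differed by -0.11 (interval -0.28 to 0.06) and Itgav by -0.13 (interval -0.28 to 0.01). Itgb1 differed by 0.08 (interval -0.05 to 0.21) and Col4a1 by -0.01 (interval -0.14 to 0.13). Wider intervals belonged to Col16a1 at -0.48 (interval -1.09 to 0.13) and Lamb2 at -0.36 (interval -1.04 to 0.32). In 21 of 28 members the interval lay within 0.5 of 0 on either side. The median difference of the members was -0.09, against 0.03 for all tested genes, and 20 of 28 were below 0. By family it was -0.08 in the collagens, -0.18 in the laminins and -0.03 in the integrins.

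**Figure D3:**
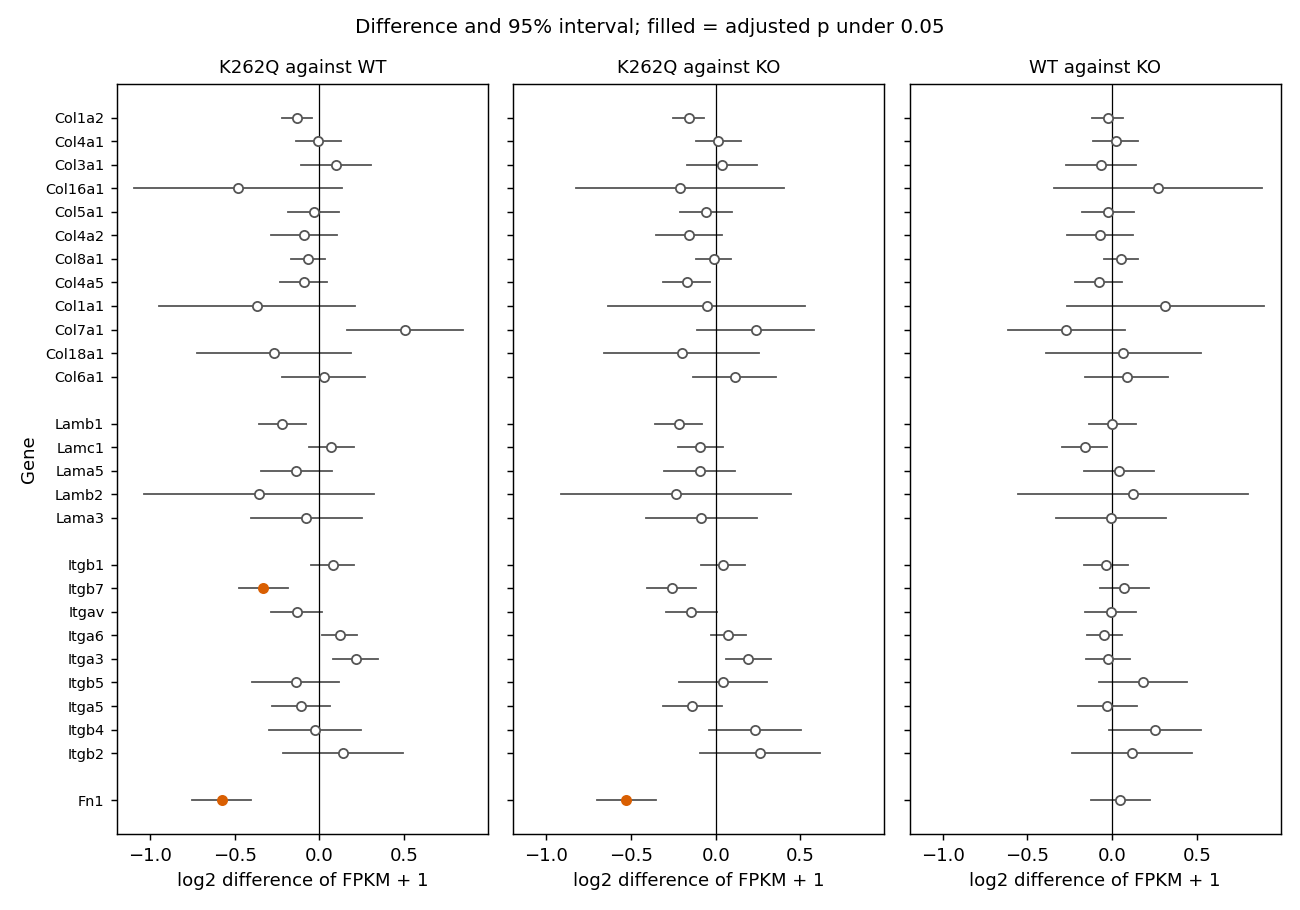
Difference of 27 of the 28 members on the log2(FPKM + 1) scale with its 95% interval, in 1 panel per comparison. Filled points passed an adjusted p of 0.05: Fn1 and Itgb7 between K262Q and WT, Fn1 between K262Q and KO, and none between WT and KO.

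The scale of the libraries touches these counts. Gene models under 200 nt took 27.5% to 31.1% of the FPKM of a library. After these models were left out and the rest rescaled, 5 of 28 members were lower in K262Q than in WT past the threshold. Among them were Col1a2 and Lamb1 beside Fn1 and Itgb7. Of all genes 11.3% passed in this setting, in either direction. The median difference over all genes was -0.05, against 0.03 as deposited. On that scale the difference of Itga6 shrank from 0.12 to 0.03 (adjusted p = 0.727 in limma) and that of Itga3 from 0.22 to 0.13 (adjusted p = 0.185 in limma), while that of Col7a1 was 0.43. Over all genes, the share of calls that were higher in K262Q was 67.8% as deposited, 61.0% with upper-quartile scaling, 58.6% with TMM scaling and 33.5% without the short models. The summed FPKM of the laminins was 200 to 203 in WT and 167 to 186 in K262Q, that of the collagens 416 to 434 and 383 to 401, and that of the integrins 418 to 421 and 398 to 412. In each of these families the K262Q sums lay below the WT sums. The KO sums were 188 to 213 in the laminins, 402 to 449 in the collagens and 410 to 423 in the integrins. For the integrins they overlapped K262Q. Such sums weigh the highest genes most. Mean Itgb7 was 103 FPKM in WT and 81.9 FPKM in K262Q, and mean Col1a2 was 210 and 191 FPKM. Of the integrins, 5 of 9 had a difference below 0. The summed epithelial markers were at 48.6 to 51.2 FPKM in KO, 44.2 to 46.3 FPKM in WT and 40.8 to 42.7 FPKM in K262Q. Krt18 and Krt20, at means of 30.9 and 12.7 FPKM, made up most of this sum. The summed leukocyte markers, of which Cd14 was the 1 above the minimum, were at 49.6 to 56.0 FPKM in KO, 48.3 to 51.6 FPKM in WT and 56.8 to 58.3 FPKM in K262Q. The summed mesenchymal markers were at 5466 to 6349 FPKM in KO, 5232 to 5849 FPKM in WT and 6118 to 6483 FPKM in K262Q. For this sum K262Q lay above WT and overlapped KO. Vim and S100a4, at means of 3090 and 2560 FPKM, made up most of it. The part of these marker sums in the results was not tested.

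K262Q was also compared with KO, which shares the K262Q samples with the comparison above. Fn1 was the 1 member that passed, 3.57% of the 28 beside 1.26% of all genes in either direction and 0.54% in the lower one. It was 1.44-fold lower in K262Q, a fall of 0.53 ± 0.075 (SE) with an adjusted p of 0.0373 in limma. This call was lost when any library other than KO replicate 2 was left out. In those fits 0.106% to 0.418% of all genes passed. The call was also lost with no minimum level, with no trend and with only the 2 groups in the fit. There the adjusted p ran from 0.0538 to 0.114 in limma. The difference of Fn1 stayed between -0.58 and -0.46 over the settings run. Without the short gene models 3 of 28 members passed, beside 3.44% of all genes. Itgb7 differed by -0.26 (adjusted p = 0.0775), Col1a2 by -0.16 (adjusted p = 0.0822) and Lamb1 by -0.22 (adjusted p = 0.0976), all in limma. The groups did not overlap in 11 of 28 members, 39.3% beside 26.9% of all genes. In K262Q 6 were lower, the integrins Itgb7 and Itgav among them, and 5 were higher. The higher ones were Col6a1, Itga3, Itga6, Itgb2 and Itgb4, and none of them passed the threshold. Itgb2 and Itgb4 were low, at means of 1.38 and 2.73 FPKM. Itgb4 also lay higher in WT than in KO without overlap. The difference was below 0 in 6 of 6 laminins, 8 of 12 collagens and 3 of 9 integrins, with medians of -0.16, -0.06 and 0.04. Over the members the median was -0.09, against 0.01 for all genes. The median for all genes moved to -0.03 without the short gene models, so signs of small differences depend on scaling.

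WT against KO asks what the return of wild-type Pd-l1 went with. Here 0 of 28 members passed in limma, beside 0.0819% of all genes, and 1 had an unadjusted p under 0.05. That was Lamc1, at 41.7, 38.3 and 38.0 FPKM in KO and at 34.4, 37.0 and 33.6 FPKM in WT, a difference of -0.16 (adjusted p = 0.854). Fn1 differed by 0.05 ± 0.075 (SE, adjusted p = 0.955) and Itgb7 by 0.07 (adjusted p = 0.916). The groups did not overlap in 3 members, Lamc1, Col7a1 and Itgb4, which is 10.7% beside 9.23% of all genes. The interval lay within 0.5 of 0 in 22 members, so differences past that size were outside the intervals of most of the list.

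Members differed in how much samples of 1 group varied. The largest coefficient of variation (SD over mean) within a group had a median of 8.87% over the members. It passed 20% in 6: Col1a1 at 35.3%, Lamb2 at 35.1%, Col16a1 at 32.4%, Col18a1 at 30.8%, Itgb2 at 24.4% and Col7a1 at 20.2%. Lamb2 was at 22.6, 10.7 and 18.5 FPKM in KO and at 9.74, 16.3 and 16.9 FPKM in K262Q. Its low samples fell in 2 different groups. Col1a1 was at 9.28, 4.94 and 5.62 FPKM in KO and at 6.52, 7.11 and 11.7 FPKM in WT, so 1 high sample stood in each. Col16a1 was at 32.7, 27.6 and 16.5 FPKM in KO and at 25.5, 23.4 and 15.8 FPKM in K262Q. The depth alone gives a counting variation of 0.693% for Col1a2 to 11.4% for Itgb2, and of 2.37% for Lamb2.

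**Figure D4:**
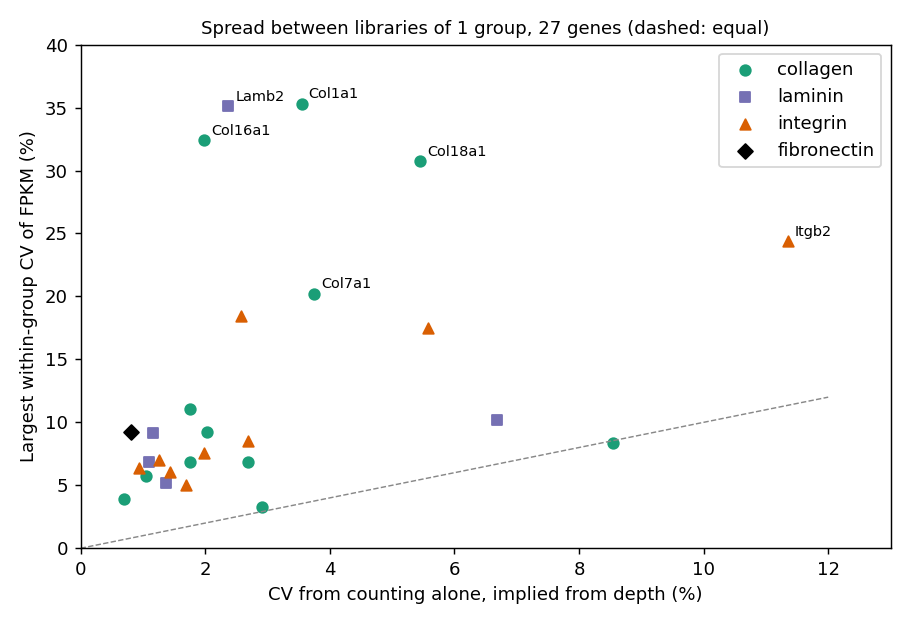
Largest within-group coefficient of variation of 27 of the 28 members against the variation that counting alone gives at the implied depth, both in percent. Lamb2, Col1a1, Col16a1 and Col18a1 stand above 30%, far over their counting variation.

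Genes that act beside the members were taken from 6 lists: collagen maturation enzymes, other matrix proteins, matrix proteases and their inhibitors, integrin adaptors, other matrix receptors, and TGF-beta signalling. Of 136 such genes tested between K262Q and WT, 9 were higher and 8 lower past the threshold, 12.5% together beside the 9.38% of all genes, with a median difference of 0.02. Other matrix proteins had 0 higher and 3 lower of 24, and TGF-beta genes 0 higher and 2 lower of 12. Maturation enzymes had 2 higher and 1 lower of 20, adaptors 4 higher and 1 lower of 43, and other receptors 3 higher and 1 lower of 22. None of 17 proteases and inhibitors passed in limma, and 6 had an unadjusted p under 0.05. The split depended on scaling: there were 3 higher and 10 lower with upper-quartile scaling, and 3 higher and 24 lower without the short gene models. Over all genes 8.64% and 11.3% passed in these 2 settings. With 1 library left out, 0 to 10 were higher and 2 to 15 lower.

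Thbs2, which encodes the matrix protein thrombospondin-2, was at 35.2, 36.0 and 39.9 FPKM in WT and at 19.3, 18.6 and 18.3 FPKM in K262Q. In KO it was at 35.8, 29.7 and 38.3 FPKM, so K262Q stood apart from both. It was 1.93-fold lower in K262Q than in WT (adjusted p = 0.00943 in limma). P4ha2, a prolyl hydroxylase of collagen chains, fell by 0.58 (adjusted p = 0.0216 in limma). The collagen chaperone Serpinh1 differed by 0.15 (adjusted p = 0.0441 in limma). That call was lost in 6 of the 9 alternatives that left out no library, upper-quartile and TMM scaling among them. Of the TGF-beta genes, the ligand Tgfb3 fell by 0.41 (adjusted p = 0.0171 in limma) and Skil, a repressor of SMAD signalling, by 0.52 (adjusted p = 0.016 in limma). Between K262Q and WT, the call of Thbs2 held in each of the 9 fits without 1 library. Those of P4ha2, Serpinh1, Tgfb3 and Skil were lost in 3 to 7 of them, in each case without WT replicate 1, K262Q replicate 2 or K262Q replicate 3. Between K262Q and KO, 2 of the 136 genes passed, Thbs2 at -0.85 (adjusted p = 0.0206) and Skil at -0.51 (adjusted p = 0.0239), both in limma, and each was lost in most fits without 1 library.

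**Figure D5:**
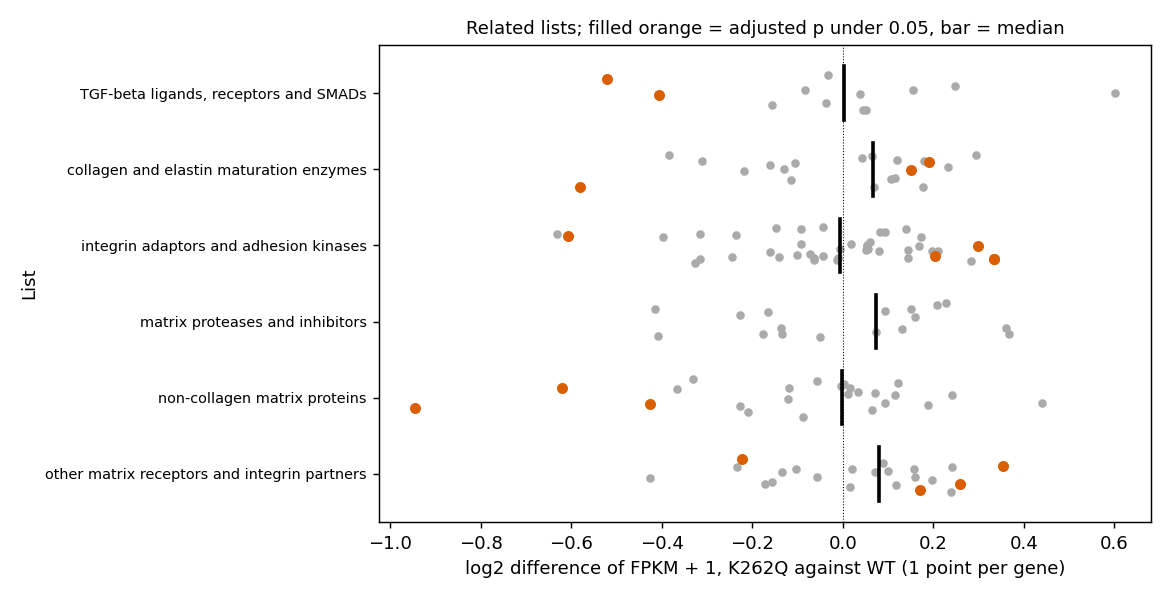
Difference between K262Q and WT on the log2(FPKM + 1) scale for the genes of the 6 related lists, 1 point per gene, with those past an adjusted p of 0.05 in orange and a bar at each median. The orange points below 0 include Thbs2, and the medians of the lists lie near 0.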

How the data were processed

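The authors deposited 1 table of FPKM values, 1 per gene and sample, which is not a count table. Per the submitters' processing notes, STAR 2.5.4a, Cufflinks 2.2.1, Cuffdiff and mm10 were used. The annotation and the strand setting are not given in the sources used here. All 9 sample columns were used.

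The fit was made on log2(FPKM + 1), a pseudocount of 1, with limma 3.58.1 (R 4.3.3), using lmFit, contrasts.fit and an eBayes trend. It held 9 samples in 3 groups and the 12212 genes whose mean reached 1 FPKM. Tests were two-sided, with Benjamini-Hochberg adjustment over these genes and a threshold of 0.05. The log2 scale understates changes of low genes. An exact permutation test of 3 against 3 cannot go below p = 0.1. Depth was implied from genes with 1 transcript that were above 0 in 1 library only, assuming 1 fragment each, and counting variation covers counting error only. Positions are those of GENCODE (GRCm38). RefSeq promoter windows were found for 20 of 28 members.

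The members and lists were chosen with earlier results of these data known. Named genes were Cd274, members past the threshold or with a small p, and members of related lists past it. The fit was also run on simulated data with independent noise for each gene and library. Shared effects of a library or a line were not simulated, and nothing is concluded from that run here. Results for some genes are not reported here, though they enter the counts. Alternatives were another pseudocount, other minimum levels, 3 scalings, fits of 2 groups, no trend, a replicate block and each library left out. Python 3.11.15, pandas 2.3.3, numpy 2.4.6, scipy 1.17.1 and matplotlib 3.10.9 were used.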

Additional observations from a re-analysis of the deposited data

How the results depend on the processing

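Between K262Q and WT the 2 members called became 1 with no minimum level and 5 without gene models under 200 nt. The count was 0 to 3 when 1 library was left out. Of all genes 9.38% passed in the main fit, 1.29% with no minimum level and 11.3% without the short models. Between K262Q and KO the 1 call became 0 with no minimum level, with no trend and with only the 2 groups compared. Of all genes 0.201%, 0.303% and 0.0819% passed in these settings, in that order. The count of members was also 0 with the replicate block, where 0.0409% of all genes passed in place of 1.26%. It was 3 without the short gene models, beside 3.44% of all genes. When 1 library was left out it was 0 to 2, beside 0.106% to 9.15% of all genes. Between WT and KO the count was 0 in each setting run. Whether the replicate numbers pair the samples was not settled, since the correlations of deviations from the group means overlapped. They were -0.0361 to 0.0776 at equal numbers and -0.0737 to 0.051 at unequal ones. Between WT and K262Q alone they were 0.0281 to 0.0776 and -0.0737 to 0.0422. With the replicate block the count between K262Q and WT was 2, while 6.46% of all genes passed in place of 9.38%. Differences close to 0 changed sign: without the short gene models Itgb1 was at -0.0147 and Lamc1 at -0.0211 between K262Q and WT. With 1 library left out, Col4a1 between K262Q and WT ran from -0.0348 to 0.0295 and Fn1 between WT and KO from -0.00629 to 0.121. Over all genes, leaving out 1 library moved the calls between K262Q and WT to 29 to 1597. Depth limits Itgb2 most, at 77.6 implied fragments.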
